A study of Mus musculus with 4 samples.

Results

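Collagens are the triple-helical proteins of the extracellular matrix, and their genes were followed here in 4 cultures of mouse melan-a melanocytes, an immortal line of pigment cells. The genes were those whose symbol in the array's annotation consists of Col, a type number, the letter a and a chain number. That gave 42 genes of 18193 and 82 probe sets of 45101. By the kind of assembly they form, 11 were fibrillar, 9 formed networks and 22 were of other kinds.

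All 4 cultures were melan-a Hmhi cells kept for 14 days in starvation medium with dialyzed serum, and each was measured on 1 array. The first received no EGF (Hmhi starved). The other 3 received 100 ng/ml EGF and were the Hmhi cells themselves (Hmhi EGF), cells labelled Hmhi-Miz1 kd, whose sample description reads pS-Miz1, and cells labelled Hmhi-MYC-TA. The labels list TPA and cholera toxin for the growth medium and not for the starvation medium. They spell out neither Hmhi nor MYC-TA, and do not say whether a line is 1 clone.

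With 1 array per condition no difference could be tested, so every value below compares arrays and there is no replicate error. Levels are log2 signals, and each gene stands by its brightest probe set on average. A difference is the first array named minus the second, and a gene was compared where the brighter of its arrays reached the array median of about 6.66. The only error these arrays hold is the spread among probe sets for the same gene, whose SD was 0.32 for Hmhi EGF minus Hmhi starved. It was 0.22 for labelled Miz1 kd minus Hmhi EGF, 0.25 for MYC-TA minus Hmhi EGF and 0.41 for MYC-TA minus labelled Miz1 kd. Zbtb17, the gene of Miz-1, read 8.73 in Hmhi starved, and with EGF 8.72 in Hmhi, 9.07 for labelled Miz1 kd and 8.71 for MYC-TA. The target transcript was thus not lower in the Miz1 kd-labelled array, and directions for that array are those of the array as labelled.

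Of 12 melanocyte markers, 9 to 10 reached the array median in each array, Sox10, Tyrp1 and Mlana among them, whereas Tyr and Ednrb were below it in all 4. Of 10 fibroblast markers, 4 reached it in 3 of the arrays and 5 in MYC-TA. Dcn, Pdgfra, Pdgfrb and Fbln1 were above it in all 4, and Lum, Dpt, Thy1, Prrx1 and Fap below it in all 4. Chondrocyte markers reached it for 2 of 8 genes in each array, Sox9 and Cnmd, and Acan, Matn1 and Hapln1 were below it throughout. Counting genes with a probe set used here, Schwann cell markers reached it for 5 of 6 in each array. Keratinocyte markers did for 2 of 7, and endothelial markers for 0 to 2 of 6. The control sets for the ends of Gapdh differed, 3' minus 5', by -0.22, -0.31, -0.40 and -0.24 in the order Hmhi starved, Hmhi EGF, labelled Miz1 kd and MYC-TA. Those of Actb differed by 0.66, 0.87, 0.74 and 0.72, with the other sign and another order of arrays. The 18S rRNA control sets had medians of 12.25 in Hmhi starved and 12.86 to 13.09 with EGF.

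Collagen chains fold in threes into a helix and are then built into different structures. Fibrillar collagens, such as types I, II, III, V and XI, form the fibres of skin, cartilage and other tissues. Type IV forms the mesh of basement membranes, on which melanocytes of the skin sit, and types VIII and X form other networks. Type VI forms beaded filaments, and type IX coats type II fibrils in cartilage. Before secretion, the chains are hydroxylated by prolyl and lysyl hydroxylases, and outside the cell lysyl oxidases cross-link them.

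Col9a1, Col2a1, Col3a1, Col8a1 and Col11a1 had the widest ranges of level over the 4 arrays, and their upstream regions are shown first, since the results turn on them. The table used held none for Col2a1. Each is the 250 bases before a RefSeq transcript start, from a table with such windows for 33 of the 42 genes. For Col9a1, which has a longer and a shorter transcript, both starts are given. Capitals mark matches to the motifs searched, on either strand.
Col3a1 upstream window, GRCm38.p6 chr1:45311288-45311537, plus strand: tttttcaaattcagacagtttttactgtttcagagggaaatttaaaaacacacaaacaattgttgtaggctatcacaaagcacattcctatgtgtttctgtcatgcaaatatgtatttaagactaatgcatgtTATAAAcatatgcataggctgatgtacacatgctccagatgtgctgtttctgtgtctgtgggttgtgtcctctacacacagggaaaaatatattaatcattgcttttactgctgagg
Col9a1 upstream window, GRCm38.p6 chr1:24177360-24177609, plus strand: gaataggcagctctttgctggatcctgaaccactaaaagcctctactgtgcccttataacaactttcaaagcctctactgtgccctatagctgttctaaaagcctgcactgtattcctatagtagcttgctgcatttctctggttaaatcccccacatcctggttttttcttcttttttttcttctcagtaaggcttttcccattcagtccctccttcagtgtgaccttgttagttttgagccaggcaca
Col9a1 upstream window, GRCm38.p6 chr1:24194953-24195202, plus strand: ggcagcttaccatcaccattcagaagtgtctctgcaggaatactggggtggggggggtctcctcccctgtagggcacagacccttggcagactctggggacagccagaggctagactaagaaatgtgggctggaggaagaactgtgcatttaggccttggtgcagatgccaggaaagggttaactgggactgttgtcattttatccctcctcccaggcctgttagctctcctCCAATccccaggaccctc
Col11a1 upstream window, GRCm38.p6 chr3:114030290-114030539, plus strand: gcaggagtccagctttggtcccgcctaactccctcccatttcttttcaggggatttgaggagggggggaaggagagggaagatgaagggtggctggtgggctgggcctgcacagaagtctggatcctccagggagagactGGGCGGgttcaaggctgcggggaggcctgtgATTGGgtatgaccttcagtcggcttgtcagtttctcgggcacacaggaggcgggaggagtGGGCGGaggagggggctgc
Col8a1 upstream window, GRCm38.p6 chr16:57754738-57754987, minus strand: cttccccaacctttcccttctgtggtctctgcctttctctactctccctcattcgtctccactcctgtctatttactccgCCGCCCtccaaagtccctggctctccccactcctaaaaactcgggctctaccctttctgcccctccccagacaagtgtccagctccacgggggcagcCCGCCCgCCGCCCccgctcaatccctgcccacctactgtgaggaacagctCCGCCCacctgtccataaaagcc

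The motifs were CACGTG (the E-box of MYC and MAX), TGANTCA (AP-1), CCAAT (the CCAAT box of general activators), GGGCGG (the GC box), TATAAA (the TATA box) and ACAATG (a site of SOX factors). Each was counted on both strands, and no match overlapped that of a different motif. In the Col3a1 window the capitals are a TATA box, in a sequence of 35.2% G and C. The Col11a1 window, at 62.4% G and C, held 2 GC boxes and a CCAAT box, and the Col8a1 window, at 60.8%, held 4 GC boxes. The upstream Col9a1 window held no match, and the downstream one held a CCAAT box. The Col11a1 and Col8a1 windows were thus alike in base composition and in holding more than 1 GC box, and the Col3a1 window was the poorest of the 5 in G and C. More than 1 GC box was also found in windows of other collagens, Col5a1, Col6a2 and Col18a1 among them.

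Over all 36 collagen windows, 58.3% held a GC box against 32.7% of all 32851 windows of that length in the table, and their median G and C content was 59.0% against 52.4%. A CCAAT box was present in 36.1% of them against 33.8%, and a TATA box in 13.9% against 12.4%. The E-box CACGTG was in 0 of the 36, against 6.02% of all windows, and ACAATG also in 0, against 10.7%. An AP-1 match was in 1, that of Col6a1 (2.78%), against 6.75%. Counts of 0 and 1 among 36 windows, from 33 genes, are small, and whether they differ from these shares was not tested. A match describes these letters and is not a binding site.

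Across the 4 arrays, 19 of the 42 collagen genes were at or above the array median in each array, 7 in some of them and 16 in none. Detection by class was 8 of 11 fibrillar, 5 of 9 network and 13 of 22 other genes, counting a gene that reached the median in any array. By that count 26 of the 42 collagens were detected, near the share over all genes, 11805 of 18193. The 16 genes that never reached it were Col1a1, Col5a2 and Col24a1 of the fibrillar class, Col4a3, Col4a5, Col4a6 and Col8a2 of the networks, and Col6a4, Col6a5, Col9a2, Col13a1, Col17a1, Col19a1, Col22a1, Col23a1 and Col26a1 of the others. They read between 3.10 and 6.61, and the level of none of them ranged by more than 0.58. Such low signals cannot separate an unexpressed gene from a weakly expressed one.

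**Figure D1:**
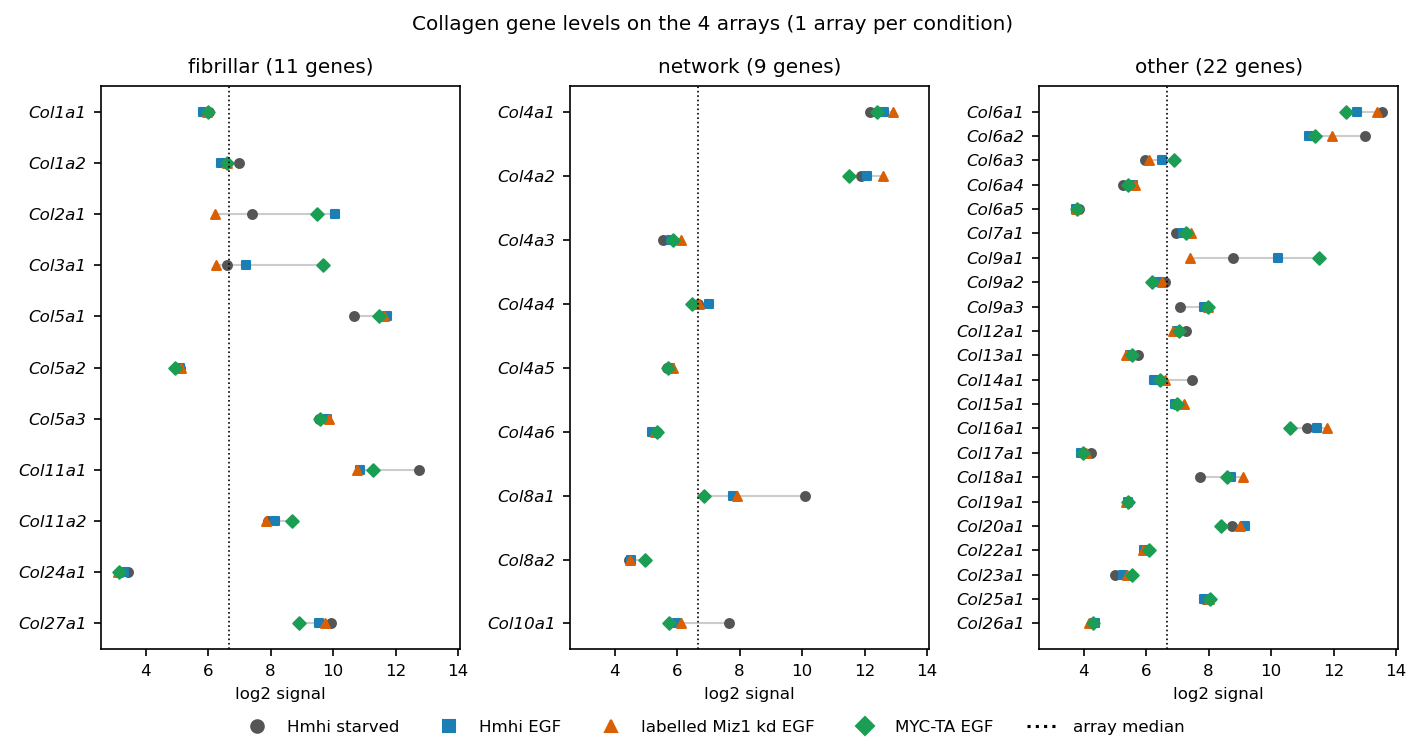
Levels of the 42 collagen genes as log2 signals (x axis), in panels for fibrillar, network and other collagens, with 1 marker per array and a dotted line at the array median. Most genes have their 4 markers close together, while Col2a1, Col3a1, Col9a1, Col11a1 and Col8a1 are spread out, Col9a1 from 7.39 to 11.53.

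The first question was how collagen genes stood after 14 days with EGF, in Hmhi EGF against Hmhi starved. Cartilage-type chains went in opposite directions: Col2a1 and Col9a1 were higher with EGF, and Col11a1 was lower. Col5a1 and Col18a1 were also higher, and Col8a1, Col10a1, Col6a2 and Col14a1 were lower. In numbers, 4 of the 25 collagen genes compared were at least 2-fold higher, against 7.98% of the 11461 genes compared, and 5 were at least 2-fold lower, against 4.96%. The median log2 difference of the 25 was 0.22, and of all genes 0.01. Since a gene could pass the level filter through its brighter array alone, these counts describe the genes compared and not the 42. Marker lists of other cell types moved with EGF too. The summed linear signal of the smooth muscle and myofibroblast list was 9034 in Hmhi starved and 2230 in Hmhi EGF. Its members went both ways, as Acta2, Tagln and Cnn1 were lower with EGF. Des, at 7.24 and 7.81, and Actg2, at 7.04 and 7.72, were higher. The Schwann cell sum was 39100 and 23724, mostly from Mbp and Pmp22. Foxd3 and Sox2 were also lower with EGF, while Cdh19, at 11.8 and 12.1, and Ngfr, below the median, were slightly higher. The melanocyte sum was 37906 and 27823, while the median level of that list was 8.40 and 9.52. Its members went both ways, with Tyrp1 at 14.09 and 13.07 and Dct at 9.79 and 11.26. The part of these shifts in the collagen differences was not tested.

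Col2a1, the chain of type II collagen and the main collagen of cartilage, read 7.39 in Hmhi starved, and with EGF 10.05 in Hmhi, 6.21 in labelled Miz1 kd and 9.48 in MYC-TA. It was high in Hmhi EGF and MYC-TA and low in the other two arrays, and in the Miz1 kd-labelled array it was below the median. The log2 difference with EGF was 2.66, a 6.31-fold higher signal on its 1 probe set and the 90th highest of the 11461 genes.

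Col9a1, a chain of type IX collagen, was likewise lowest in the Miz1 kd-labelled array. It read 8.79 in Hmhi starved, and with EGF 10.21 in Hmhi, 7.39 for labelled Miz1 kd and 11.53 for MYC-TA. The second probe set read 7.45, 7.94, 7.02 and 8.87 in that order, so the arrays ranked alike on both sets, with smaller steps on the dimmer. With EGF the log2 difference was 1.42 on the brighter set and 0.48 on the other, and the mean of both, 0.95, was short of 2-fold. For Col9a3, another type IX chain, the answer depended on the probe set. Its brighter set read 7.07, 7.86, 7.98 and 7.99, higher in each EGF array by about the same amount. Its other set to reach the median read 6.37, 7.43, 7.15 and 7.72, so that among the EGF arrays labelled Miz1 kd was lowest and MYC-TA highest, as for Col9a1, and it was higher with EGF by 1.06. Col9a2 stayed between 6.19 and 6.61, below the median.

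Col11a1, a chain of type XI collagen, the thin collagen at the core of cartilage fibrils, was high in every array and highest in Hmhi starved. Its levels were 12.75 in Hmhi starved, and with EGF 10.86 in Hmhi, 10.78 for labelled Miz1 kd and 11.26 for MYC-TA. The EGF arrays were thus close together, and the log2 difference with EGF was -1.88 on this probe set and -2.06 on the second. Col11a2, another chain of the same type, read 7.93, 8.13, 7.84 and 8.67 and had a log2 difference of 0.20.

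Col8a1, a chain of the network collagen found under endothelial cells and in vessel walls, had the most negative difference with EGF among the collagens. It read 10.10 in Hmhi starved, and with EGF 7.77 in Hmhi, 7.91 for labelled Miz1 kd and 6.85 for MYC-TA. The log2 difference was -2.32 on this set and -1.75 on the next brightest, and every EGF array was below the starved one on all 3 sets. Col10a1, the type X collagen of hypertrophic cartilage, read 7.66 in Hmhi starved and between 5.73 and 6.13 in the EGF arrays. Its 3 EGF levels were below the median, so background limits the size of its log2 difference of -1.67.

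Type VI collagen is assembled from chains that include those of Col6a1, Col6a2 and Col6a3. Col6a2 read 12.99 in Hmhi starved, and with EGF 11.20 in Hmhi, 11.95 in labelled Miz1 kd and 11.41 in MYC-TA, and its probe sets had log2 differences of -1.79 and -1.78 with EGF. Col6a1, its neighbour on the chromosome with 0 protein-coding genes between them in RefSeq (GRCm38.p6), read 13.54, 12.74, 13.38 and 12.38. Both genes were highest in Hmhi starved, and in both the Miz1 kd-labelled array was the highest with EGF. For Col6a1 the log2 difference with EGF was -0.81, short of 2-fold. Col6a3 was near the median, at 5.95, 6.51, 6.08 and 6.88, and its difference of 0.56 had the opposite sign, from levels below the median in these 2 arrays.

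Of the remaining genes at least 2-fold apart with EGF, Col5a1, the type V chain that starts collagen fibrils, read 10.68 in Hmhi starved and 11.72, 11.64 and 11.48 in Hmhi EGF, labelled Miz1 kd and MYC-TA. Its 3 probe sets had log2 differences between 0.25 and 1.05, and their mean was 0.71. Col18a1, a basement membrane collagen whose end fragment is endostatin, read 7.71, 8.72, 9.10 and 8.57, with differences of 1.01 on both sets. Both genes were lowest in Hmhi starved but lay just past the 2-fold line. Col14a1, a collagen on the fibril surface, read 7.47 in Hmhi starved and 6.25 to 6.62 with EGF, below the median, and its difference was -1.22. Its other sets, below the median in every array, had -0.70 and -0.29, and the mean of the sets was -0.74, short of 2-fold. Using the mean of all probe sets, 2 collagens were 2-fold higher with EGF, and 3 were lower with the filter at the 75th percentile or with plain _at probe sets only.

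**Figure D2:**
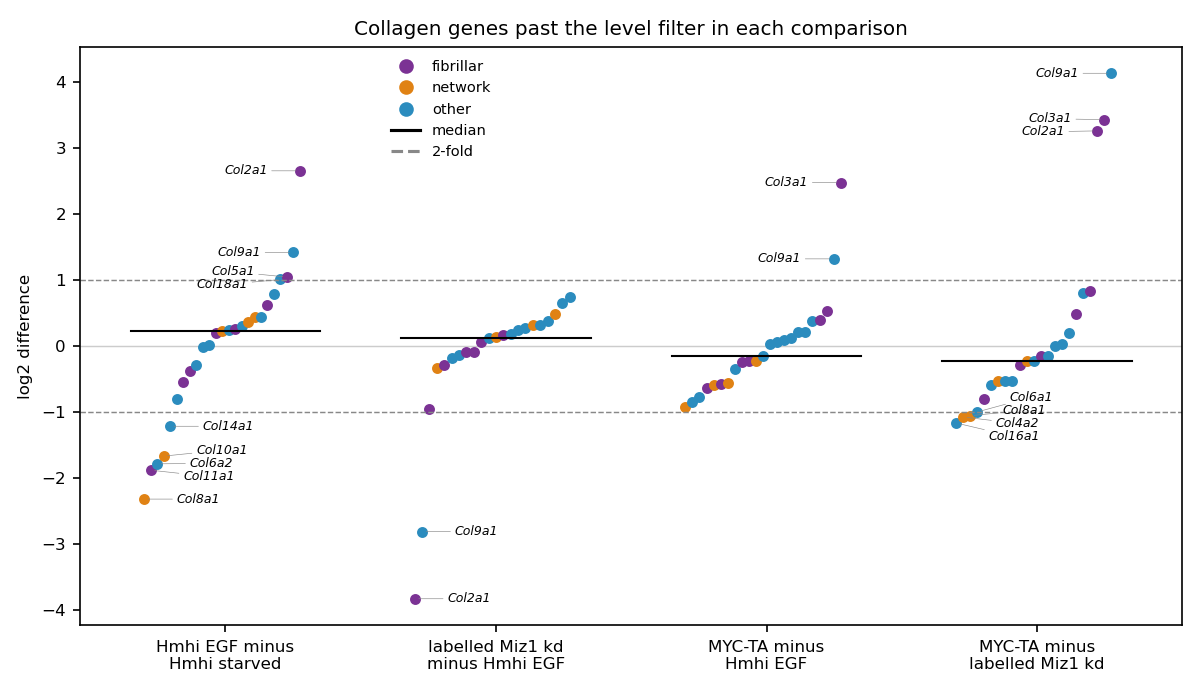
Log2 difference (y axis) of each collagen gene past the level filter in the 4 comparisons (x axis), coloured by class, with the median as a black line and 2-fold as dashed lines. Genes at least 2-fold apart are named; Col2a1 and Col9a1 are at -3.84 and -2.82 in labelled Miz1 kd minus Hmhi EGF, with the other collagens between -0.95 and 0.75.

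The next comparison, labelled Miz1 kd minus Hmhi EGF, sets the cells labelled as a knockdown beside the Hmhi cells, both with EGF. No array is labelled as a control vector, so the construct cannot be told apart from other differences between these cultures. Col2a1 and Col9a1 were far lower in the Miz1 kd-labelled array, and no other collagen was 2-fold apart. They were 9.09% of the 22 collagens compared, against 2.79% of the 11394 genes compared that were apart in either direction. At least 2-fold higher were 0 of the 22, against 0.29% of all genes, so that count is near the background. The 2 lower genes compare with 2.50% of all genes. The median log2 difference was 0.13, and of all genes 0.02.

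Col2a1 had a log2 difference of -3.84, from 10.05 to 6.21, and only 11 of the 11394 genes were further down. Its level in the Miz1 kd-labelled array was below the median, so background limits the size of that difference, and it was also below the 7.39 of Hmhi starved. Col9a1 had a difference of -2.82 on its brighter set and -0.92 on the other. On both sets it was lower than in Hmhi starved as well. Col3a1 lay just short of 2-fold, at -0.95, from 7.21 to 6.25.

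Most network and filament chains compared had positive differences of smaller size, while the type IV chain Col4a4 had one of -0.33. Col4a1 and Col4a2 encode the chains of the common type IV collagen, and their RefSeq starts lie 21 bases apart on opposite strands. Col4a1 read 12.17 in Hmhi starved, and with EGF 12.61 in Hmhi, 12.92 in labelled Miz1 kd and 12.38 in MYC-TA. Col4a2 read 11.87, 12.09, 12.58 and 11.50. Both were highest in the Miz1 kd-labelled array, by log2 differences of 0.31 and 0.48 from Hmhi EGF. Col6a2, Col6a1, Col18a1 and Col16a1 were higher there by 0.75, 0.65, 0.38 and 0.32. The SD between probe sets was 0.22, but it holds no spread between cultures, so it cannot show whether such differences would recur.

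MYC-TA minus Hmhi EGF bears on the MYC-TA cells with EGF present, here too without an array labelled as a control vector. Col3a1 and Col9a1 were higher in MYC-TA, and the network collagens compared all had negative differences below 2-fold. In numbers, 2 of 23 collagen genes were at least 2-fold higher, against 1.30% of the 11534 genes compared, and 0 were at least 2-fold lower, against 1.65%. The median log2 difference was -0.15, and of all genes 0.05; the first ranged from -0.24 to 0.05 over the processing alternatives, so its sign is not fixed.

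Col3a1, the type III collagen of skin and vessel walls, read 6.59 in Hmhi starved, and with EGF 7.21 in Hmhi, 6.25 in labelled Miz1 kd and 9.69 in MYC-TA. MYC-TA stood alone, and the other 3 arrays were near the median. The log2 difference of 2.48, a 5.58-fold higher signal, was the 8th highest of the 11534 genes. Its dimmer probe set was below the median everywhere, at 4.11, 4.07, 3.83 and 5.07, and was also highest in MYC-TA, by 1.004.

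Neighbours and partners of Col3a1 did not show that level. Col5a2, which lies next to it in RefSeq, read 5.10, 5.08, 5.14 and 4.93 in the same order of arrays. The type I chains, which make mixed fibrils with type III in skin, were low: Col1a1 read between 5.84 and 6.03, and Col1a2 read 6.97 in Hmhi starved and 6.42 to 6.60 with EGF. Among fibroblast and contractile markers, the summed linear signal of the smooth muscle and myofibroblast list was 9034 in Hmhi starved, and with EGF 2230 in Hmhi, 2035 in labelled Miz1 kd and 5415 in MYC-TA, with 5 of 6 genes at or above the median in each. For the fibroblast list it was 4891, 4234, 4351 and 5124. Both sums were higher in MYC-TA than in the other EGF arrays, but their members went both ways. From Hmhi EGF to MYC-TA, Dcn read 10.34 and 11.56 and Acta2 9.70 and 11.80, while Pdgfrb read 10.18 and 6.91 and Tagln 9.39 and 8.69. The part of these markers in the Col3a1 level was not tested. In such bulk RNA, fewer cells of a type and less RNA per cell cannot be told apart.

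On its 2 sets Col9a1 was higher in MYC-TA by 1.32 and 0.93. Col2a1 did not go with it, with a log2 difference of -0.57. The cartilage proteoglycan gene Acan read 5.40, 5.40, 5.23 and 5.23 in Hmhi starved, Hmhi EGF, labelled Miz1 kd and MYC-TA, below the median in each, and the summed linear signal of the chondrocyte list was 1223, 744, 922 and 834. Its detected members differed in order, with Cnmd at 9.73, 8.28, 8.97 and 8.73 and Sox9 at 7.29, 7.88, 7.93 and 7.57. The part of these markers in the Col2a1 and Col9a1 levels was not tested.

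Among the genes lower in MYC-TA, Col8a1 had a log2 difference of -0.92 on its brightest set and -0.20 on the next. Col16a1, a collagen on the fibril surface, read 11.15 in Hmhi starved, and with EGF 11.46 in Hmhi, 11.77 in labelled Miz1 kd and 10.61 in MYC-TA, a difference of -0.85. Col20a1, another of that group, read 8.74, 9.18, 9.002 and 8.41, with a difference of -0.77. Col27a1, a fibrillar collagen of cartilage, read 9.94, 9.56, 9.73 and 8.92, a difference of -0.64. On the sets given MYC-TA was the lowest array for these 3 genes, by less than 2-fold from Hmhi EGF. On another Col20a1 set labelled Miz1 kd was the lowest, at 6.73 against 6.83 in MYC-TA.

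**Figure D3:**
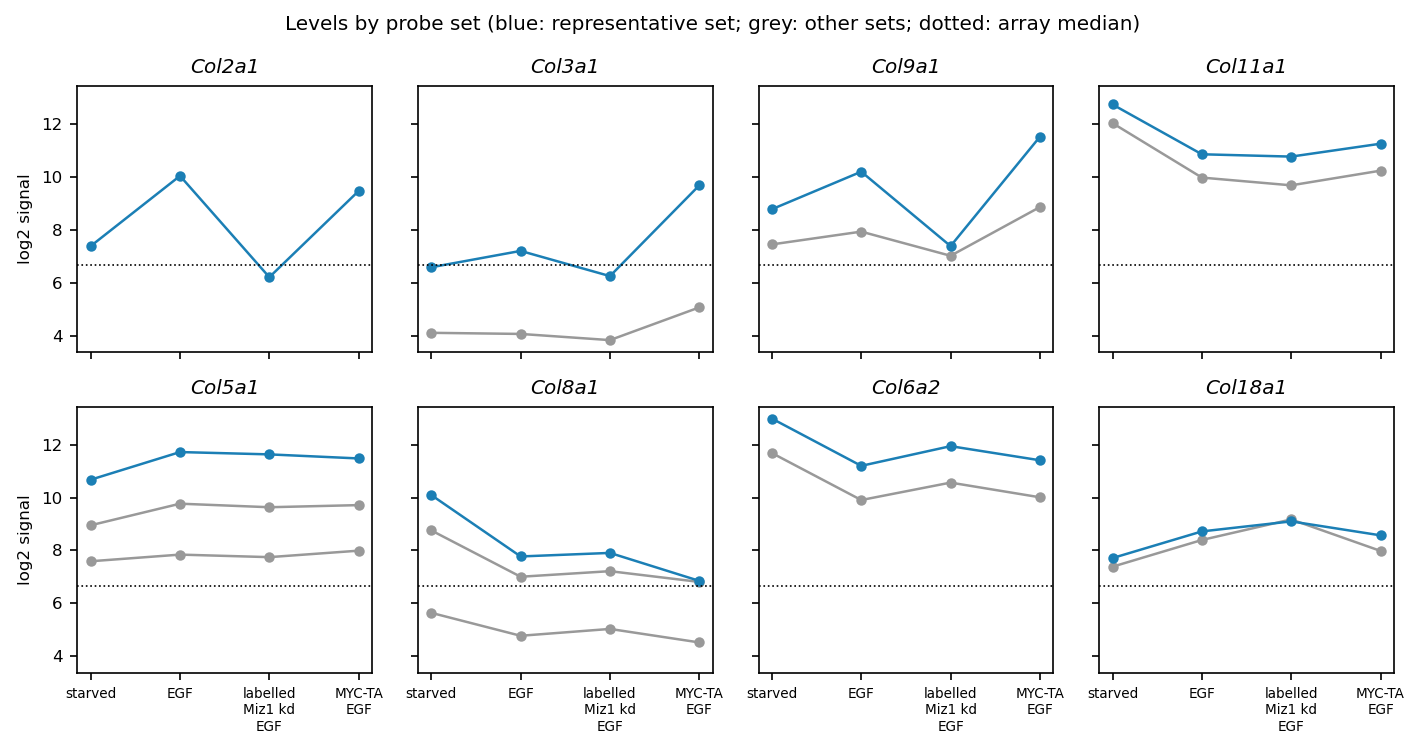
Log2 signal (y axis) of each probe set of 8 collagen genes in the 4 arrays (x axis), with the representative set in blue, other sets in grey and the array median dotted; lines join the values of a set and imply no order of conditions. Both Col9a1 sets are lowest in the Miz1 kd-labelled array, at 7.39 and 7.02, and highest in MYC-TA, at 11.53 and 8.87.

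Set directly against the Miz1 kd-labelled array, MYC-TA was higher for Col9a1, Col3a1 and Col2a1 and lower for Col16a1, Col4a2, Col8a1 and Col6a1. These were 3 of 23 collagen genes at least 2-fold higher, against 6.72% of the 11613 genes compared, and 4 at least 2-fold lower, against 4.26%. The median log2 difference was -0.23, and of all genes 0.04. This comparison shares its arrays with the previous ones and adds no independent value.

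Col9a1 had the largest difference of any collagen, 4.14 on its brighter set, a 17.6-fold higher signal and the 14th highest of the 11613 genes, and 1.84 on the other. Col3a1 and Col2a1 differed by 3.43 and 3.26, from levels below the median in the Miz1 kd-labelled array, where background limits the size. The 4 lower genes lay close to the 2-fold line, at -1.17 for Col16a1, -1.08 for Col4a2, -1.06 for Col8a1 and -1.001 for Col6a1. For Col8a1 the next brightest set had -0.41 and the mean of its sets -0.66, short of 2-fold. In 6 of the 7 processing alternatives 3 collagens, not 4, were at least 2-fold lower. Col4a1 had a difference of -0.54 on its brighter set and -1.05 on the other. For Col18a1 the brighter set had -0.53 and the other -1.19. For Col12a1 the brightest set had 0.19 and the next 1.65.

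The remaining collagens above the median varied little. Col5a3, a type V chain, read 9.54, 9.79, 9.86 and 9.57 in Hmhi starved, Hmhi EGF, labelled Miz1 kd and MYC-TA. Col25a1, a membrane-spanning collagen, read 7.86, 7.84, 8.02 and 8.05. Col7a1, which anchors the basement membrane to the dermis, read 6.95, 7.19, 7.44 and 7.28. In these 3 genes the differences in the 4 comparisons were at most 0.29 in size. Col4a4, a type IV chain of specialised membranes such as the kidney filter, read 6.66, 7.03, 6.70 and 6.47, close to the median, and its partner chain Col4a3 stayed below it. Col15a1 and Col12a1 read between 6.91 and 7.20 and between 6.85 and 7.27. Both Col12a1 sets that reached the median were lowest in the Miz1 kd-labelled array, but by unequal amounts. The second read 7.01, 6.52, 5.36 and 7.01, a log2 difference from Hmhi EGF of -1.16 against -0.13 on the first.

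Genes that modify and cross-link collagens were taken as the first list of partners. Of 27 such genes on the array, 19 were compared between Hmhi EGF and Hmhi starved, and 9 were at least 2-fold higher and 1 lower, against the 7.98% and 4.96% of all genes given above. Their median log2 difference was 0.95. Loxl1, a lysyl oxidase that cross-links matrix fibres, read 6.03 in Hmhi starved, and with EGF 9.26 in Hmhi, 8.83 for labelled Miz1 kd and 7.88 for MYC-TA. Its level in Hmhi starved was below the median, so background limits the size of its difference with EGF. The lysyl hydroxylase genes Plod1 and Plod2 were higher with EGF by 2.62 and 2.01. P3h4, a partner of the hydroxylation machinery, had a difference of -2.15, from 8.85 to 6.70.

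In the Miz1 kd-labelled array, 0 of 19 of these genes were 2-fold apart from Hmhi EGF in either direction, and the median was -0.02. Of all genes 0.29% were higher and 2.50% lower there, so a count of 0 among 19 is near the background. In MYC-TA, 18 of 20 had a negative difference, against 5160 of the 11534 genes compared, with a median of -0.30 against 0.05. Several of the 18 were smaller in size than the SD between probe sets, 0.25. Since the list was chosen with earlier results of these data known, these counts only describe it. Of the 20, 3 were at least 2-fold lower, against 1.65% of all genes. Those 3 were Loxl1 at -1.38, the prolyl hydroxylase gene P4ha2 at -1.19 and Loxl3, another lysyl oxidase, at -1.11. P4ha2 read 7.98, 9.97, 10.52 and 8.77, and Loxl3 read 10.65, 12.54, 13.05 and 11.43. Both were highest in the Miz1 kd-labelled array and lowest in Hmhi starved. Lox itself was higher in MYC-TA by 0.73, at 6.86, from a level below the median in Hmhi EGF.

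Fibril organizers and matrix partners went both ways with EGF, with 4 of 16 at least 2-fold higher and 4 lower, against 7.98% and 4.96% of all genes. Postn, a matrix protein that binds collagen, read 7.91 in Hmhi starved, and with EGF 10.15 in Hmhi, 8.85 in labelled Miz1 kd and 10.03 in MYC-TA. Its high and low arrays were those of Col2a1, except that labelled Miz1 kd stayed above Hmhi starved. Dcn, which encodes decorin, a proteoglycan on the fibril surface, read 11.50, 10.34, 9.45 and 11.56. Its log2 difference was 1.22 for MYC-TA minus Hmhi EGF and -0.90 for labelled Miz1 kd minus Hmhi EGF. In MYC-TA 1 of 16 of these genes was 2-fold higher and 1 lower, against 1.30% and 1.65% of all genes. In the Miz1 kd-labelled array 0 were higher and 1 lower, against 0.29% and 2.50%, and single genes are too few to set apart from these shares.

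Of 10 genes for collagen receptors and uptake with a probe set used here, 8 were compared. Only Mrc2, the receptor that takes up collagen for breakdown, was 2-fold apart with EGF. That share, 12.5%, was close to the 12.9% of all genes apart in either direction. Mrc2 read 6.14 in Hmhi starved, and with EGF 8.003 in Hmhi, 8.71 in labelled Miz1 kd and 7.19 in MYC-TA. Its starved level was below the median, so background limits the size of its difference with EGF. Ddr2, a receptor kinase for fibrillar collagens, read 10.27, 10.51, 11.43 and 9.99. Both receptors were highest in the Miz1 kd-labelled array, and their differences for MYC-TA minus labelled Miz1 kd were -1.53 and -1.44. Itgb1, the beta subunit of the collagen-binding integrins, was higher with EGF by 0.93.

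**Figure D4:**
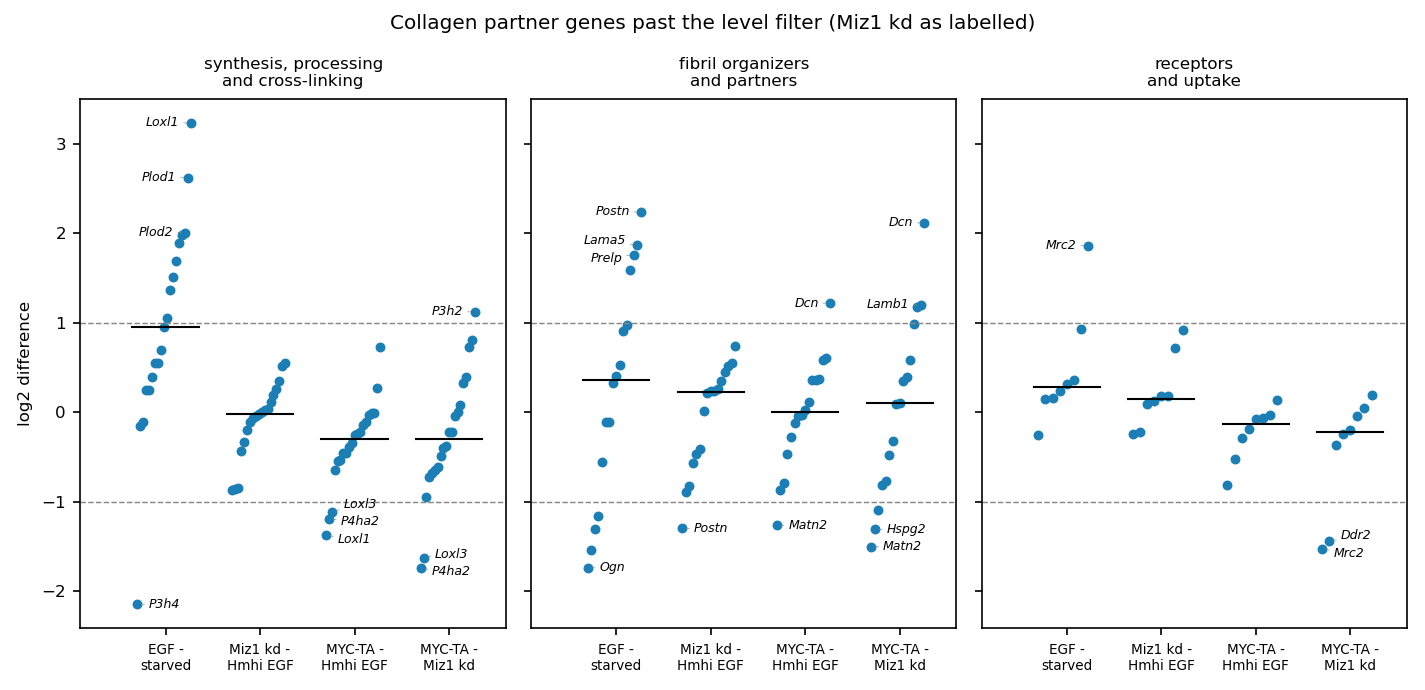
Log2 difference (y axis) of genes for collagen processing, for fibril organization and for collagen receptors that passed the level filter, in the 4 comparisons (x axis), with the median as a black line and 2-fold as dashed lines. Processing genes have a median of 0.95 for Hmhi EGF minus Hmhi starved and of -0.30 for MYC-TA minus Hmhi EGF.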

How the data were processed

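Total RNA of 4 melan-a cultures was measured on Affymetrix arrays, 1 per culture. The labels' protocols give 100 ng of RNA per labelling reaction and the IVT-Express kit. What the authors deposited ran from 2.94 to 15.12 and was read as log2 signal. Sorted, the 4 columns differed by at most 0.004, so the arrays had been made comparable before deposit, and a change common to every gene is invisible. Log base, summarization and normalization are not given in the sources used here.

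From these values, differences between arrays were computed for the probe set of each gene with the highest mean over the 4 arrays. Names came from the platform annotation of 34945 probe sets with 1 symbol, checked by Entrez identifier against RefSeq, which changed 0 symbols. In all, 932 sets with several symbols and 9160 unnamed ones were left out. Genes were compared where the brighter array reached its median over non-control sets, and counted where at least 2-fold apart. With 1 array per group there was no test and no p-value. Error is limited to the SD among a gene's own probe sets, and the number of arrays limits the precision. Collagens that reached the median in any array, or were 2-fold apart, were named, with up to 4 genes per partner list and comparison. Members and lists were chosen with earlier results of these data known. Processing was tested on simulated data. Python 3.11.15, pandas 2.3.3, numpy 2.4.6, statsmodels 0.14.6 and matplotlib 3.10.9 were used.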

Additional observations from a re-analysis of the deposited data

How the results depend on the processing

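No paired analysis was possible because there was 1 sample in each group, which also meant that none could be omitted. A pseudocount does not apply to log values. Of the 20 differences of at least 2-fold, 19 stayed past it in the same direction under loess (span 0.4). Quantile normalization and a common median also left 19, but the sorted columns already differed by at most 0.004, so these settings could move little. That number was 16 when all probe sets of a gene were averaged, and 14 with plain _at sets only, where Col2a1, Col6a2 and Col16a1 have no set. The level filter was not reapplied in counting these differences. The 14 thus include Col3a1 in both comparisons with MYC-TA, on a set below the median in every array. With averaged probe sets, 2 collagens were 2-fold higher with EGF. With the filter at the 75th percentile 3 were lower with EGF, as with plain _at sets, which also gave 1 lower for labelled Miz1 kd minus Hmhi EGF and 1 higher for MYC-TA minus Hmhi EGF. With loess, 1 was 2-fold lower in MYC-TA than in Hmhi EGF. The collagen median for MYC-TA minus Hmhi EGF ranged from -0.24 to 0.05, so its sign depends on the setting, and the others kept theirs. Only the brightest set of Col3a1 was above the median, and plain _at sets gave 1.004 for its difference in MYC-TA minus Hmhi EGF.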
